A study of Mus musculus with 24 samples.

Results

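Chromatin regulators are the proteins that add, remove or read marks on histones, or that slide and evict nucleosomes, and their transcripts were followed here through the m6A peak lists of 12 mouse kidneys. The members were the protein-coding genes whose symbol begins with Kmt, Setd, Nsd, Kdm, Hdac, Smarc or Arid, or with Chd or Brd followed by a digit, and that had at least 1 m6A peak on an exon, on their own strand, in any kidney. Of 92 annotated genes with such symbols, 69 had a peak, among 7774 protein-coding genes with a peak in all. They held 2101 of the 91013 peaks in the lists, or 2.31%. Overlapping peaks of the 12 kidneys on one strand were joined into loci, of which 313 of 16815 lay in members.

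N6-methyladenosine (m6A) is a methyl mark on adenosines inside mRNA. It is placed by the METTL3-METTL14 methyltransferase mainly within the RRACH motif, in which R is A or G and H is A, C or T, and it is known for its density in long internal exons and near stop codons. Readers such as the YTH proteins bind the mark and alter the splicing, export, translation and decay of the mRNA. Histone methyltransferases (Kmt, Setd, Nsd), demethylases (Kdm) and deacetylases (Hdac) act on histone tails, SWI/SNF, ISWI and CHD remodellers (Smarc, Chd and some Arid proteins) move nucleosomes, and bromodomain proteins (Brd) bind acetylated lysines.

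Kidneys came from male C57BL/6 mice of 8 weeks, with 4 mice in each of 3 groups. Controls received vehicle only. The injury group (IG) received cisplatin, a platinum drug that injures the tubules, at 20 mg/kg after vehicle pretreatment. The treatment group (TG) had the plant alkaloid berberine, 20 mg/kg daily over 14 days, before the same dose of cisplatin. All kidneys were collected at 72 h from the injection of cisplatin or vehicle. IG was compared with control (IvC) to see what the injury changed, and TG with IG (TvI) to see what berberine pretreatment changed within it. No mice received berberine without cisplatin in the samples used here.

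Each list gives the position and score of every peak on mRNA exons, without read counts, and sequencing depth is therefore unknown. The lists became shorter from control (8531 to 9579 peaks) to IG (6745 to 8357) to TG (5901 to 6753), which touches every count of peaks below. A listed peak needs both transcript and methylation, and a missing one may mean less of either, so these cannot be told apart here. Nor can fewer cells of a type and less RNA per cell in whole kidney. Of 10 kidney marker genes 4 carried a peak in any kidney, among them the sodium-potassium-chloride cotransporter Slc12a1 and the endocytic receptor Cubn, while Umod and Lrp2 had none, so the lists themselves give little check of the tissue label. Their summed peaks ranged from 0 to 3 in control, 2 to 5 in IG and 0 to 2 in TG, and Slc12a1 had 2, 0, 0 and 0 peaks in control, 1, 2, 4 and 1 in IG and 0 in each TG kidney. Of 4 endothelial markers 3 carried a peak, with sums of 2 to 6, 2 to 3 and 2 to 4, and among them Pecam1 had 3, 2, 1 and 2 in control and 1 in each IG and TG kidney. Of 4 fibroblast markers 2 carried a peak, with sums of 1 in each control, 1 to 2 in IG and 1 to 3 in TG. Of 7 leukocyte markers 3 carried a peak, and their summed peaks ranged from 1 to 2 in controls, 1 to 3 in IG and 1 to 4 in TG. Of these, the integrin gene Itgam had 0 peaks in the 4 controls and 1 or 2 in each IG and TG kidney, Cd74 had 1 in each control, 1, 0, 1 and 1 in IG and 0, 0, 0 and 2 in TG, and Ptprc had 1 in control replicate 2 only. The leukocyte markers did not move one way. Any part of these cell types in the results below was not tested.

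The sequences below are the exons on which the comparisons turn, printed on the strand of the gene from the RefSeq copy of GRCm38, with RRACH matches in capitals. The first 4 are coding sequence of the loci that had a peak in 4 of 4 controls and 0 of 4 IG kidneys. For Kdm6b exon 11, which is longer, the 200 bases with most matches are shown (chr11:69404596-69404795, minus strand), and for Brd7 exon 1 only its 49 coding bases (chr8:88361906-88361954, minus strand). Kmt5a exon 2 lies at chr5:124447214-124447370 and Smarcc1 exon 9 at chr9:110167605-110167730, both on the plus strand.
Kdm6b exon 11: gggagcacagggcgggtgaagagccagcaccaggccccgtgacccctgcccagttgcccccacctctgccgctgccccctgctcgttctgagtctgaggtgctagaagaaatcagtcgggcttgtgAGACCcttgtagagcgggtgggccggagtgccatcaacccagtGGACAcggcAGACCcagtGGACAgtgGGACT
Kmt5a exon 2: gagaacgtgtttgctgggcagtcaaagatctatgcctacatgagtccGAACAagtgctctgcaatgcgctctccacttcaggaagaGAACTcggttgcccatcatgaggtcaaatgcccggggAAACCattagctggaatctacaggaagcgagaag
Brd7 exon 1: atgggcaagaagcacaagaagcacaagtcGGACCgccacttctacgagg
Smarcc1 exon 9: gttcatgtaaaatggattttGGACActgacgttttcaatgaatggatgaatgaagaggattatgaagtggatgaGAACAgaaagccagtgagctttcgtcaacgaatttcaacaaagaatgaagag
The next 4 serve as contrasts. Smarcc1 exon 10 (chr9:110170946-110171067, plus strand) adjoins exon 9 in the transcript and had a peak in all 12 kidneys, as did Smarcc1 exon 23 (chr9:110204212-110204326, plus strand) and Arid1a exon 3, which had the highest mean score of the member loci found in all 12 (first 200 bases shown, chr4:133720800-133720999, minus strand). Chd7 exon 8 (chr4:8822377-8822491, plus strand) had a peak in 3 of 4 IG kidneys and in no other.
Smarcc1 exon 10: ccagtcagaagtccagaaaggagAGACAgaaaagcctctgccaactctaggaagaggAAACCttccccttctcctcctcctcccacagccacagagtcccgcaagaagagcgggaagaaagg
Smarcc1 exon 23: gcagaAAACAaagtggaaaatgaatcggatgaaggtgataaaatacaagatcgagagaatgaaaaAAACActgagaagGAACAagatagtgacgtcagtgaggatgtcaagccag
Arid1a exon 3: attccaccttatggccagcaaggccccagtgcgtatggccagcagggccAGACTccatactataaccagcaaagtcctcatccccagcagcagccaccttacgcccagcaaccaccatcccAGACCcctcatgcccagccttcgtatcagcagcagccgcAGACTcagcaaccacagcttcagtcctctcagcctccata
Chd7 exon 8: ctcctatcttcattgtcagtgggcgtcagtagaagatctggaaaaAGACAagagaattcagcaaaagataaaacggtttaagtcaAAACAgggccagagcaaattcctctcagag

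Smarcc1 exon 9, which had a peak only in controls, held 2 RRACH matches, as did its neighbour exon 10, which had a peak in all 12 kidneys. Exon 23 of the same gene held 3 in 115 nt with 0 on the opposite strand, and Kmt5a exon 2 held 3 in 157 nt. Kdm6b exon 11 held 24 in 2168 nt. The letters of a match say nothing of whether its adenosine was methylated.

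Across the peaks of the members RRACH occurred on the gene strand of 94.5% ± 0.626 (SD, n = 12 kidneys) and on the opposite strand of 76.6% ± 1.22, and the gene strand was higher in 12 of 12 kidneys. All peaks gave 94.9% ± 0.179 and 81.3% ± 0.619. The 5 letters GGACT, which are 1 of the forms of RRACH, went the other way in the members, with 33.0% ± 1.5 of peaks on the gene strand and 36.7% ± 1.27 on the opposite strand, so that the gene strand was lower in 12 of 12 kidneys. Among all peaks the gene strand was the higher for GGACT in 12 of 12 kidneys (41.1% ± 0.778 against 38.3% ± 0.607). Of the loci, 94.6% of 313 in members and 93.8% of all 16815 held RRACH on the gene strand, and 27.8% and 39.1% held GGACT. Member loci were shorter (median 206 bp against 290 bp), and per kb GGACT occurred 1.05 times in member loci and 1.15 times in all loci. Kidneys share most loci, so these 12 values are not independent of each other.

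Internal exons of 100 to under 200 nt are the most frequent kind in these genes, and those with a locus differed in composition from those without. The 124 exons with a locus held 34.2% A and 17.8% T, and the 731 without held 27.6% A and 22.7% T. The median exon with a locus had 34.1% A (quartiles 29.9% and 38.9%) and the median exon without had 27.1% (23.8% and 31.7%). The same contrast was present over all genes with a peak, with 32.8% A in exons with a locus and 26.8% in those without. RRACH density in the members was 18 per kb in exons with a locus and 15.8 per kb in those without, while the densities that the pooled base composition alone would give were 19.3 and 13.5 per kb. On the opposite strand the densities were 7.55 and 11.1 per kb.

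The members carried more peaks per gene than genes in general. They had a mean of 4.54 loci per gene and a median of 3, against 2.16 and 1 over all genes with a peak. At least 2 loci were present in 58 of 69 members (84.1%, against 47.5% of all genes) and at least 5 in 26 (37.7%, against 9.27%). Members are also longer, with a median transcript of 6130 nt and 23 exons against 3446 nt and 9 exons. Among genes of 20 or more exons the 49 members had a mean of 5.33 loci and the 1319 genes of that kind 3.52. Per length of transcript the members had 0.684 loci per kb and all genes with a peak 0.540. Of the members 15.9% had 1 joined locus, whereas in single kidneys a mean of 36.6% of members with a peak had 1 peak. By kidney rather than by joined locus, a member with a peak had 3.36 ± 0.297 peaks in control, 3.06 ± 0.122 in IG and 2.84 ± 0.0923 in TG (SD, n = 4 each), against 1.81, 1.69 and 1.66 for all genes with a peak.

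**Figure D1:**
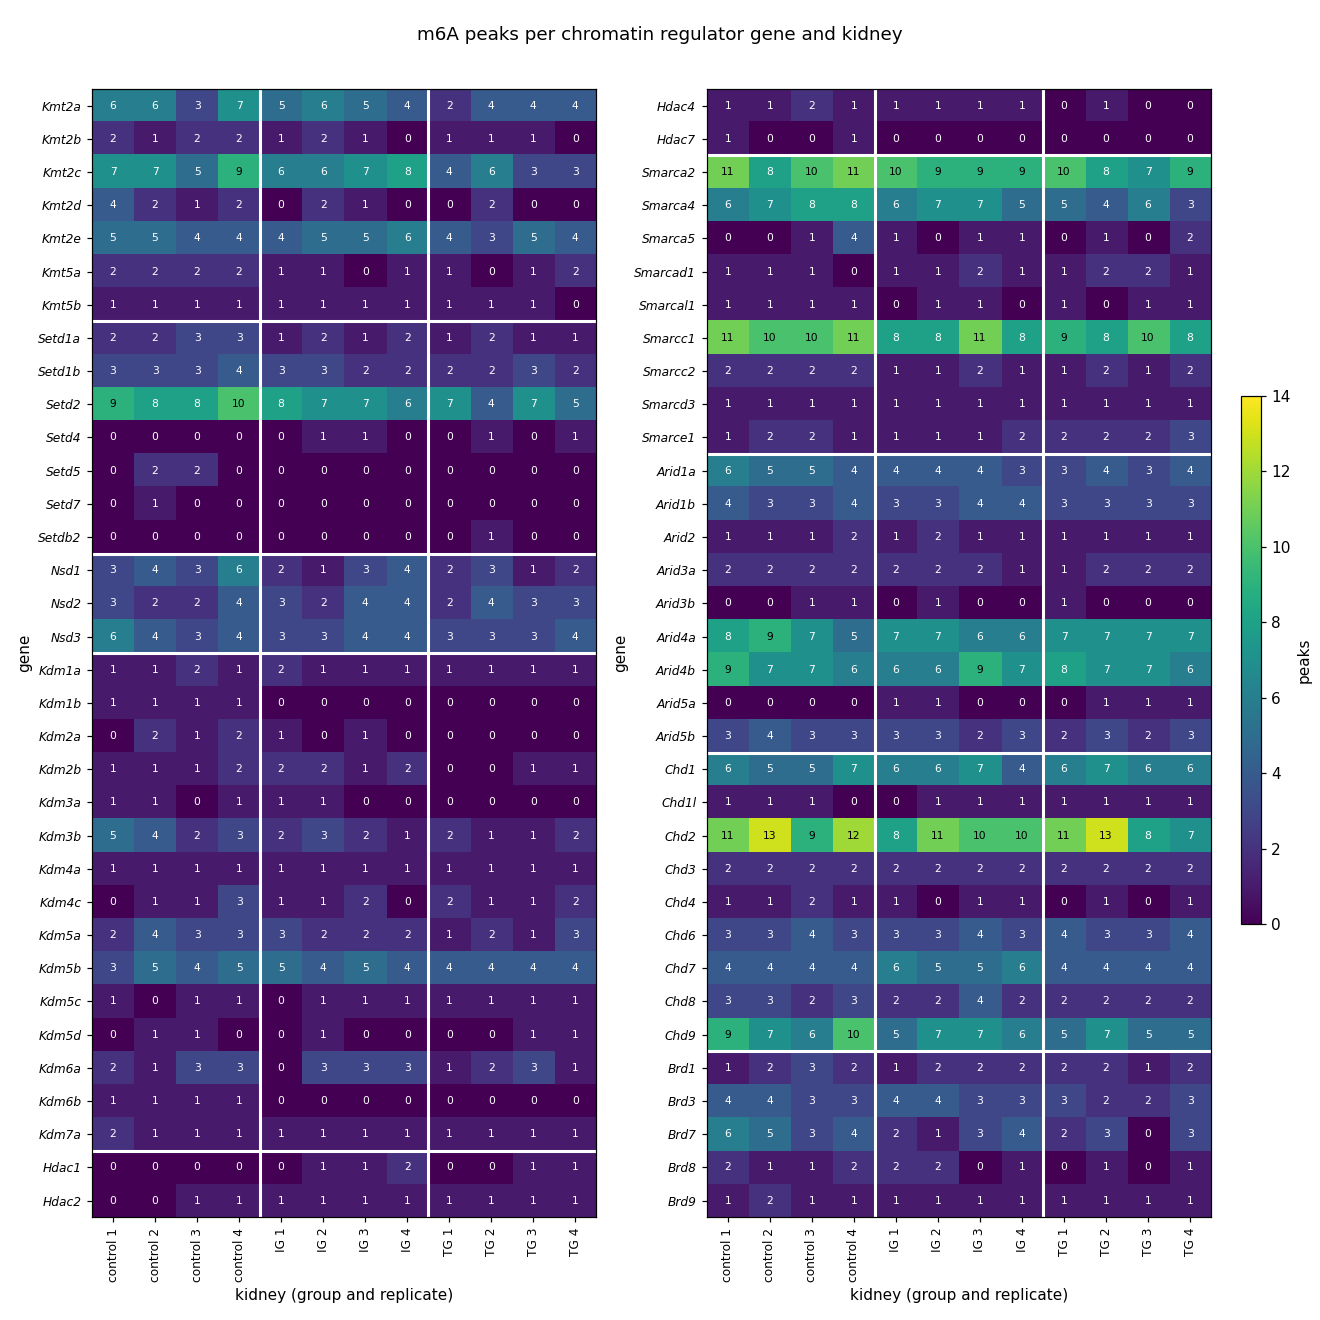
Number of m6A peaks (cell numbers and colour) on 68 of the 69 member genes (rows, ordered by family from Kmt to Brd with white lines between families) in each of the 12 kidneys (columns, grouped as control, IG and TG). Smarcc1, Smarca2 and Chd2 have the most peaks in each group, and Kdm6b and Kdm1b have 1 peak in each control and 0 in all IG and TG kidneys.

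The 4 genes with most loci were remodellers. Smarca2, an ATPase of SWI/SNF complexes also known as BRM, the core subunit gene Smarcc1 (BAF155) and the CHD remodeller Chd2 had 14 loci each, followed by Chd9 with 13, the enhancer histone methyltransferase Kmt2c with 12, Setd2, Arid4a and Arid4b with 11 each and Smarca4 (BRG1, the alternative SWI/SNF ATPase) with 10. Smarcc1 had 10 or 11 peaks in the controls, 8, 8, 11 and 8 in IG and 9, 8, 10 and 8 in TG. Smarca2 had 8 to 11 in controls, 9 or 10 in IG and 7 to 10 in TG. In Chd2 the controls had 11, 13, 9 and 12 peaks, the IG kidneys 8, 11, 10 and 10 and the TG kidneys 11, 13, 8 and 7. In each of these genes the number of peaks overlapped between groups, whereas at 6 of 7 Smarca2 loci listed in all control and IG kidneys the scores did not overlap between control and IG, as described with the scores by group.

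Loci often sat on neighbouring exons. In Setd2, which trimethylates histone H3 along transcribed genes, 9 consecutive exons (11 to 19 of 21) had a locus. The next longest runs were 8 exons in Smarcc1 (7 to 14 of 28), 8 in Arid4b (14 to 21 of 24), 7 in Smarca2 (5 to 11 of 34), 7 in Chd2 (3 to 9 of 39) and 6 in Arid4a (15 to 20 of 24). Within such a run the exons were listed in unequal numbers of kidneys. Smarcc1 exons 10, 11 and 13 had a peak in 12 of 12 kidneys and exon 12 in 11, whereas exon 9 had one in 4, exon 8 in 4 and exons 7 and 14 in 1 each. Another block of Smarcc1, exons 21 to 24, had a peak in all 12 kidneys, with a mean score of 1831 on exon 23 and 1136 on exon 24. The score is the negative log10 of a peak's p-value multiplied by 10. It grows with depth as well as with enrichment and is not normalized between kidneys, so scores of different kidneys are set side by side here only to describe and rank loci, and to shorten the lists in the alternatives.

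**Figure D2:**
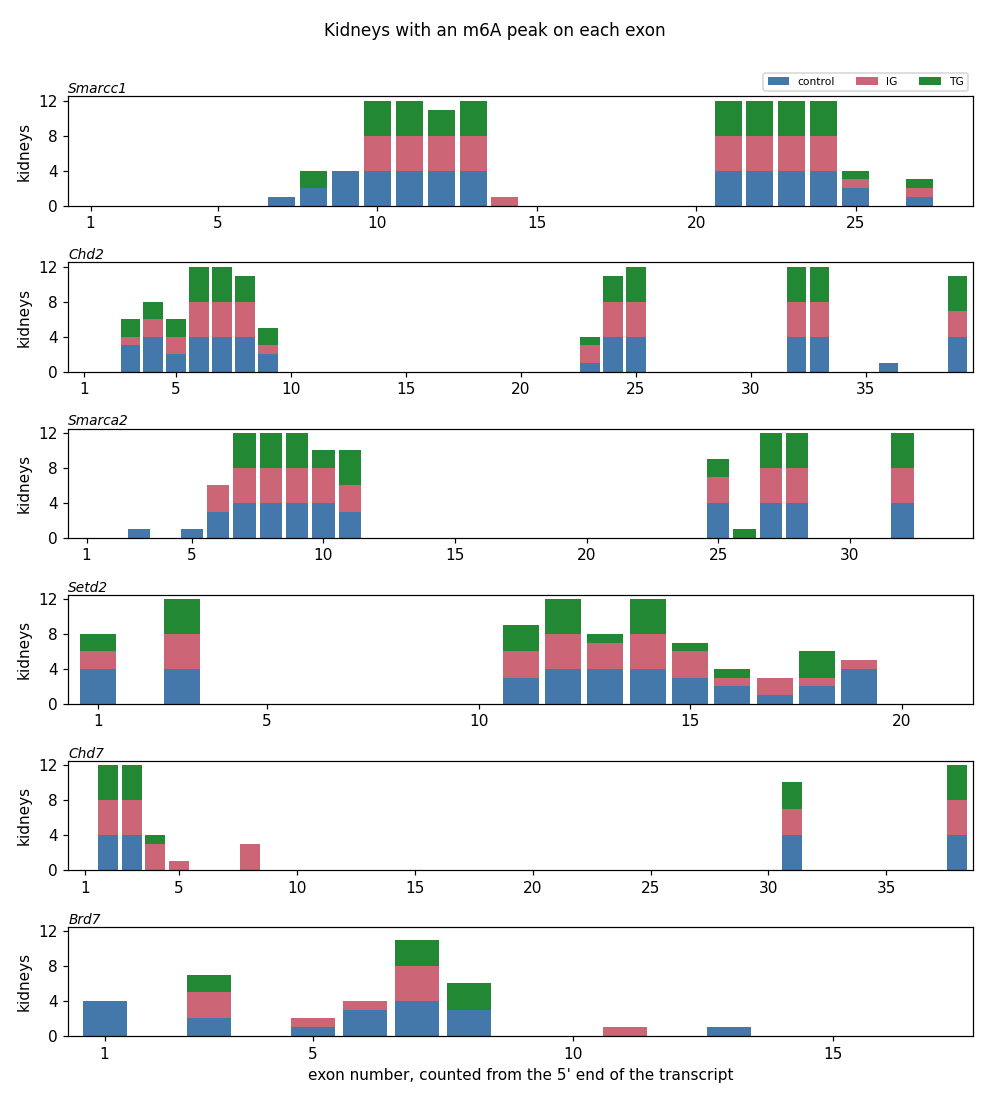
Number of kidneys with a peak (vertical axis, 0 to 12, stacked by group) on each exon (horizontal axis, numbered from the 5′ end) of 6 member genes. In Smarcc1 the peaks form a pair of blocks around exons 10 to 13 and 21 to 24, exon 9 beside the first block is blue only (4 controls), and in Chd7 exon 8 is listed in IG alone (3 kidneys).

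Of the 2101 member peaks 82.8% coincided exactly with an annotated exon, against 64.5% of all peaks. Such a peak marks an exon and gives no position finer than that. Longer internal exons had a locus more often, from 11% of 337 exons under 100 nt and 14.5% of 855 exons of 100 to under 200 nt, through 25% of 236 exons of 200 to under 400 nt and 70.2% of 47 exons of 400 to under 1000 nt, to 93.1% of 29 exons of 1000 nt or more. Over all genes with a peak the shares were 8.80%, 11.3%, 18.1%, 62.0% and 85.6%. The last exon, which holds the stop codon and the 3′ UTR in most genes, had a locus in 31.9% of the members against 56.7% of all genes.

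**Figure D3:**
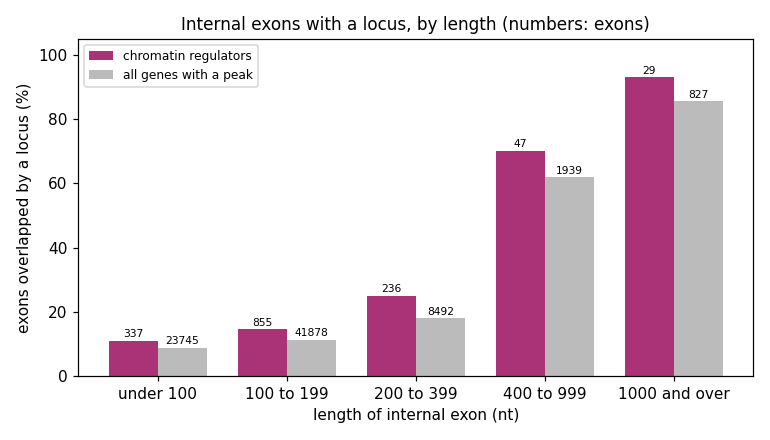
Percent of internal exons overlapped by at least 1 locus (vertical axis) in 5 classes of exon length in nt (horizontal axis), for members and for all genes with a peak. Numbers above the bars are exons, and both sets climb with length, from 11% and 8.80% under 100 nt to 93.1% and 85.6% at 1000 nt and over.

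By transcript segment, 86.1% of 296 placed loci of the members fell in the coding sequence, against 58.1% of all placed loci. The segment within 200 nt of the start codon held 5.74% (all loci 13.9%), that around the stop codon 4.73% (13.1%), the 3′ UTR 3.38% (13.5%) and the 5′ UTR 0 loci (1.42%). Per kidney the share in the coding sequence was 88.3% ± 1.89 in control, 87.6% ± 0.902 in IG and 86.5% ± 0.854 in TG (SD, n = 4). These ranges overlapped between each group and the next. With codon segments of 100 nt, 90.2% of placed member loci were coding, 3.38% start, 1.35% stop and 5.07% 3′ UTR. All placed loci then gave 66.1%, 7.96%, 5.79% and 17.1%.

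Of the 84 member loci listed in 12 of 12 kidneys, Arid1a exon 3 (chr4:133720550-133720999), in the gene of an ARID subunit of the BAF complex, had the highest mean score. It scored 3100 in each control, 2553 to 3233 in IG and 2186 to 3100 in TG. High means were also found at Setd2 exon 3 (chr9:110547209-110551494, 4286 nt), Arid1a exon 20 (chr4:133679039-133682055) and Kdm5a exon 27 (chr6:120431813-120432223), in the gene of a histone H3 demethylase. Setd2 exon 3 scored 1480 to 3100 in control, 2394 to 3100 in IG and 2005 to 3224 in TG. Kdm5a exon 27 scored 1293 to 2276 in control, 2016 to 3091 in IG and 1340 to 2307 in TG. The score 3100 itself recurred in 1086 of all peaks and 12 member peaks, with 79 peaks above it, so values at that level may not rank peaks.

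Scores at loci listed in all 8 kidneys of a comparison were set side by side as a description, and no test was made of them. In IvC the IG scores lay wholly below the control scores at 8 of 97 member loci (8.25%, against 12.6% of 3036 loci) and wholly above them at 8 (8.25%, against 9.39%). Of the 8 lower loci 6 belonged to Smarca2 and 2 to Arid1b. On exon 28 of Smarca2 (chr19:26751824-26752041) the scores were 2815, 2904, 2828 and 3100 in control, 704, 810, 554 and 587 in IG and 464, 945, 655 and 436 in TG. On exon 27 they were 1647 to 3152, 306 to 555 and 387 to 539, and on exon 32 2024 to 2993, 601 to 1266 and 937 to 1269. Exons 7, 8 and 9 of Smarca2 had the same order, with 811 to 1854 in control, 74.7 to 548 in IG and 65.9 to 571 in TG. At these 6 exons IG and TG overlapped, and every IG and TG score was below every control score of its exon, although the number of Smarca2 peaks overlapped between the groups.

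Of the 8 higher loci 3 lay in Arid4b, 2 in Chd2 and 1 each in Brd9, Chd7 and Nsd2. Arid4b exon 17 (chr13:14169919-14170179) scored 330.1, 548, 450 and 698 in control, 1518, 1483, 1166 and 1172 in IG and 1011, 788, 908 and 985 in TG, so that TG lay between the other groups without overlap. In TvI the TG scores lay wholly below the IG scores at 5 of 88 member loci (5.68%, against 5.26% of 2776) and wholly above them at 0 (against 2.23%). The 5 were 2 loci of Arid4b, 2 of Chd8 and 1 of Arid4a. Less transcript and less methylation cannot be told apart in a score either.

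Presence in all kidneys was more frequent in the members than over all genes. A peak was found in all 12 kidneys for 39 of 69 members (56.5%) and for 24.3% of all genes with a peak. Of the member loci, 84 of 313 (26.8%) were in all 12 kidneys against 14.4% of all loci. Members had more loci per gene (mean 4.54 against 2.16), and the shares of genes were not adjusted for that. Chromatin genes outside these families, such as Bptf, Ep300 and Baz2b, also had a peak in every kidney. Others of them, such as Ezh1 and Tet1, did not. At least 2 kidneys of the group had a peak for 64 members in control, 61 in IG and 58 in TG, and all 4 kidneys for 52, 45 and 45. As shares these were 92.8%, 88.4% and 84.1% of members beside 68.8%, 61.7% and 53.6% of all genes with a peak, and 75.4%, 65.2% and 65.2% beside 45.6%, 36.1% and 31.3%, so presence fell over all genes as well. At the other end, Setd5 had peaks in control replicates 2 and 3 only, Setd7 in control replicate 2 only, Setdb2 in TG replicate 2 only, and the class IIa deacetylase Hdac7 in control replicates 1 and 4 only.

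In number of peaks, the members had 203, 198, 184 and 217 in control, 164, 175, 183 and 164 in IG and 150, 162, 147 and 154 in TG. Each control exceeded each IG kidney, and each IG kidney exceeded each TG kidney. The means were 200.5 ± 13.6, 172 ± 9.26 and 153 ± 6.50 (SD, n = 4), a difference of −14.5% in IvC and −10.6% in TvI, beside −17.1% and −14.0% for the lists as a whole. As a share of the list the members took 2.24% ± 0.132, 2.32% ± 0.101 and 2.41% ± 0.153. When each list was cut to its 5901 highest-scoring peaks, the length of the shortest, the members had 146 ± 8.76, 149 ± 5.56 and 146 ± 6.40 peaks, so that the difference in IvC turned from −29.0 to 3.25 peaks and that in TvI went from −18.2 to −3.50. Genes were called by comparing their peaks over all 70 arrangements of 8 kidneys, and no test was made of these sums.

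**Figure D4:**
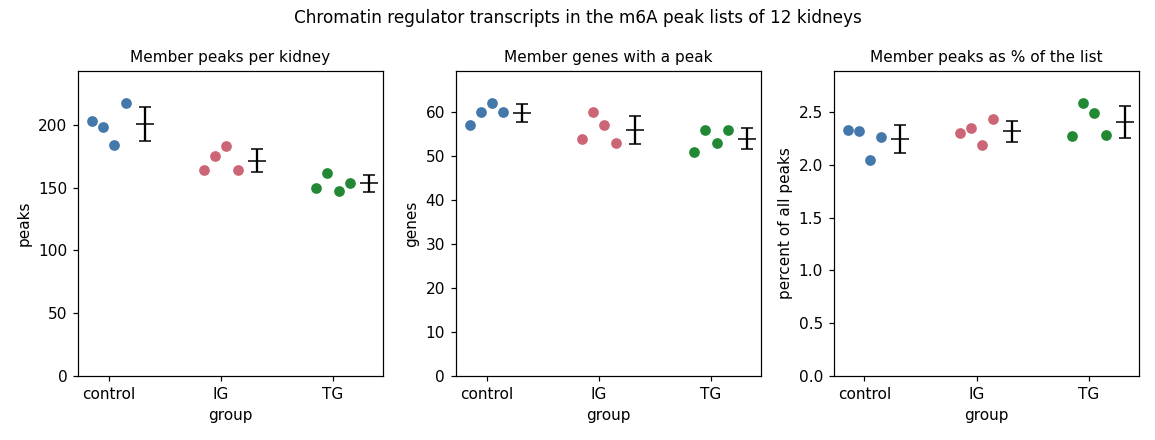
Member peaks (left), member genes with a peak (middle) and member peaks as a percent of all peaks of the kidney (right) in each kidney (points) by group, with mean ± SD of 4 kidneys beside them. Peaks step down from 184 to 217 in control to 147 to 162 in TG, while the share of the list overlaps between groups.

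Among the writers, the 7 Kmt genes with a peak had 27, 24, 18 and 27 peaks in control, 18, 23, 20 and 20 in IG and 13, 17, 15 and 13 in TG. Controls and IG kidneys overlapped, and every TG kidney was below every IG kidney. The difference was −15.6% in IvC and −28.4% in TvI, beside −17.1% and −14.0% for the lists as a whole, whose IG and TG lengths (6745 to 8357 and 5901 to 6753 peaks) barely overlapped. Kmt2c had the largest part in this, with 7, 7, 5 and 9 peaks, then 6, 6, 7 and 8, then 4, 6, 3 and 3 (TvI difference −2.75, unadjusted two-sided exact permutation p = 0.0857). The 7 Setd genes had 14 to 17 peaks in control, 10 to 13 in IG and 9 to 11 in TG, most of them in Setd2, with 9, 8, 8 and 10, then 8, 7, 7 and 6, then 7, 4, 7 and 5. Nsd1, Nsd2 and Nsd3, which methylate histone H3 in gene bodies, had a peak in all 12 kidneys and 6 loci each. Of the Kmt family Kmt5c had no peak in any kidney, and of the Setd family Setd3, Setd6 and Setdb1 had none. Nsdhl, a sterol enzyme that shares only the letters of the prefix, had none either.

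Among the erasers, the 15 Kdm genes had 21, 25, 23 and 28 peaks in control, 19, 21, 20 and 16 in IG and 14, 14, 16 and 18 in TG, and neighbouring groups touched or overlapped. Kdm3b had most loci of the family with 6, and 5, 4, 2 and 3 peaks in control, 2, 3, 2 and 1 in IG and 2, 1, 1 and 2 in TG. Kdm4b, Kdm4d and Kdm8 had no peak. Deacetylases were the family with fewest peaks. Of 11 Hdac genes 4 had any, and they held 7 loci, with none in all 12 kidneys, while Hdac3, Hdac5, Hdac6, Hdac8, Hdac9, Hdac10 and Hdac11 had none. Hdac1, the class I deacetylase of the Sin3 and NuRD complexes, had 0 peaks in each control, 0, 1, 1 and 2 in IG and 0, 0, 1 and 1 in TG. Its partner Hdac2 had 0, 0, 1 and 1 in control and 1 in each IG and TG kidney. Hdac4 had 1, 1, 2 and 1 in control, 1 in each IG kidney and 0, 1, 0 and 0 in TG. As a sum the Hdac genes had a mean of 2.25 peaks in control, 3 in IG and 1.75 in TG. Family genes without a peak had shorter transcripts (median 2747 nt, 13 exons) than those with one.

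The Smarc, Arid and Chd families had the smallest relative differences in their sums. The Smarc and Chd genes encode remodellers or their subunits, as do Arid1a, Arid1b and Arid2, while other Arid proteins bind DNA or serve other complexes. The 9 Smarc genes, at 1.34 loci per kb the densest family, had 34, 32, 36 and 39 peaks in control, 29, 29, 35 and 28 in IG and 30, 28, 30 and 30 in TG (differences of −14.2% and −2.48%). For the 9 Arid genes the differences were −9.17% and −1.83%, and for the 9 Chd genes −6.41% and −5.48%. Arid4a and Arid4b, subunits of Sin3 deacetylase complexes, had 5 to 9 and 6 to 9 peaks in control, 6 or 7 and 6 to 9 in IG, and 7 and 6 to 8 in TG. The 27 genes of the Smarc, Arid and Chd families together held 60 of the 84 member loci found in all 12 kidneys. Chd3 had 2 peaks and Smarcd3 1 peak in every kidney. Smarca1, Smarcb1, Smarcd1, Smarcd2, Arid3c and Chd5 had no peak. The 6 Brd genes had 20, 20, 16 and 20 peaks in control, 16, 14, 14 and 14 in IG and 14, 13, 9 and 14 in TG (differences of −23.7% and −13.8%). Brd2 had no peak, nor had Brd3os, which shares the prefix only.

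In IvC, 4 of 307 member loci (1.30%) had a peak in all controls and no IG kidney, which is the only kind of loss that Fisher's exact test calls with 4 against 4 kidneys (unadjusted p = 0.0286, the smallest this design allows). Over all 16072 loci the share was 2.73%. With lists of equal length it was 3 of 236 member loci (1.27%) and 1.93% of all, and with scores below the overall median left out 4 of 181 (2.21%) and 3.10%, and no test was made of the members' share against that of all loci. None of the calls passed adjustment over all loci (lowest adjusted p = 0.701, Benjamini-Hochberg over Fisher's exact tests). No member locus was gained by the same rule (0 of 307, against 1.35% of all loci). By the looser rule of a difference of at least 3 of 4 kidneys, 15 member loci were lost (4.89%, against 8.95% of all) and 6 gained (1.95%, against 3.82%). With control replicate 3 or IG replicate 2 left out, 8 member loci were lost by Fisher's exact test in place of 4, while the losses over all loci numbered 574 and 556 in place of 438.

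The 4 lost loci belonged to an eraser, a writer, a reader and a remodeller. Kdm6b, the demethylase of the Polycomb mark on histone H3, had its single locus on exon 11 of 23 (chr11:69404006-69406173, coding sequence), with scores of 240, 377, 405 and 572 in the controls and no peak in any IG or TG kidney. In Kmt5a, the monomethyltransferase of histone H4, exon 2 of 7 scored 201, 142, 85.1 and 101 in the controls, had no peak in IG and scored 68.2, 42.3 and 63.2 in TG replicates 1, 3 and 4. Brd7, a bromodomain subunit of the PBAF complex, had a peak over the whole of exon 1 of 17 (chr8:88361906-88362194), which holds the start codon, with scores of 119, 78.9, 124 and 104 in controls and none elsewhere. Smarcc1 exon 9 of 28 scored 47.5, 40.0, 77.7 and 48.8 in controls and had no peak in IG or TG. The weakest of these, Smarcc1 exon 9, lay below the median score of all peaks (71.3) in 3 of 4 controls, and with peaks under that median left out its difference was −1 kidney in place of −4, and with lists of equal length −3.

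By number of peaks per gene, 3 of 68 members were called as lower in IvC (4.41%, against 4.89% of 7526 genes) and 1 as higher (1.47%, against 2.26%), each with an unadjusted two-sided exact permutation p = 0.0286 and an adjusted p of 0.400. Kmt5a fell from 2 peaks in each control to 1, 1, 0 and 1 in IG. Kdm6b fell from 1 to 0 peaks, and so did Kdm1b, a flavin-dependent demethylase. The 1 peak of Kdm1b lay on exon 2 in control replicates 1 and 4 and on exon 7 in control replicates 2 and 3. Its scores ran from 15.3 to 46.7, below the median score of all peaks (71.3). Chd7, a remodeller of enhancers, rose from 4 peaks in each control to 6, 5, 5 and 6 in IG. Its peaks on exons 2 and 3 were in all 12 kidneys, and the added ones lay on exon 4 (3 IG kidneys, 1 TG kidney), exon 5 (1 IG kidney) and exon 8 (3 IG kidneys), with scores from 15.0 to 40.9. Over all 68 members tested the number of peaks was lower in 45, higher in 10 and equal in 13, with a median difference of −0.25 peaks, the same median as over all genes, of which 53.3% were lower and 29.6% higher against 66.2% and 14.7% of the members. These shares count genes, and a member with a peak had 3.36 peaks in a control kidney against 1.81 for all genes. The sum of member peaks differed by −14.5% in IvC, beside −17.1% for the lists as a whole. With lists of equal length it differed by 3.25 peaks. Without IG replicate 3 the members called as lower numbered 5.

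In TvI no member locus passed Fisher's exact test in either direction (0 of 264 lost, against 0.449% of 13367 loci, and 0 of 264 gained, against 0.217%). By the difference of at least 3 of 4 kidneys, 7 were lost (2.65%, against 3.21%) and 4 gained (1.52%, against 1.28%). For genes, 1 of 64 members was called as lower (1.56%, against 0.87% of 6666 genes) and 0 as higher (against 0.27%). The one gene was Chd7, which fell from 6, 5, 5 and 6 peaks to 4 in each TG kidney (difference −1.5, unadjusted two-sided exact permutation p = 0.0286, adjusted p = 1). With lists of equal length Chd7 was called neither in IvC nor in TvI, and without TG replicate 2 there were 3 members called as lower. Among the gains by at least 3 kidneys was exon 9 of Smarce1, a SWI/SNF subunit (BAF57), which scored 300.0, 365, 230.0 and 525 in TG, 92.5 in IG replicate 4 and 102, 85.4 and 90.4 in 3 controls.

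In opposite directions in IvC and TvI, 5 member loci differed by 3 or more kidneys of 4. Both comparisons share the IG kidneys, so the differences at a locus are not independent. Kmt5a exon 2 had a peak in 4 control, 0 IG and 3 TG kidneys, and Brd7 exon 8 (chr8:88345830-88345953) in 3, 0 and 3. These 2 of 313 member loci (0.639%) stand beside 0.452% of all loci. The reverse order, 0 control, 3 IG and 0 TG kidneys, was shown by Chd7 exon 8, by Kmt2c exon 44 (chr5:25295398-25295610) and by exon 11 of Kdm2b, a demethylase that recruits Polycomb complexes (chr5:122932467-122932951), 3 of 313 member loci (0.958%) beside 0.868% of all. Scores of these last loci ranged from 15.0 to 40.4, near the lowest score in any list (13.0). Brd7 exon 8 ranged from 18.1 to 116, so it also reached down near that score, and Kmt5a exon 2 from 42.3 to 201. A difference of 3 of 4 kidneys has an unadjusted Fisher's exact p of 0.143, so none of the 5 passed the test in TvI. With scores below the overall median left out, Kmt5a exon 2 differed by 0 kidneys in TvI in place of 3. Chd7 exon 8 then differed by 0 kidneys in IvC and in TvI, in place of 3 and −3. With lists of equal length Chd7 exon 8 differed by 1 and −1.

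**Figure D5:**
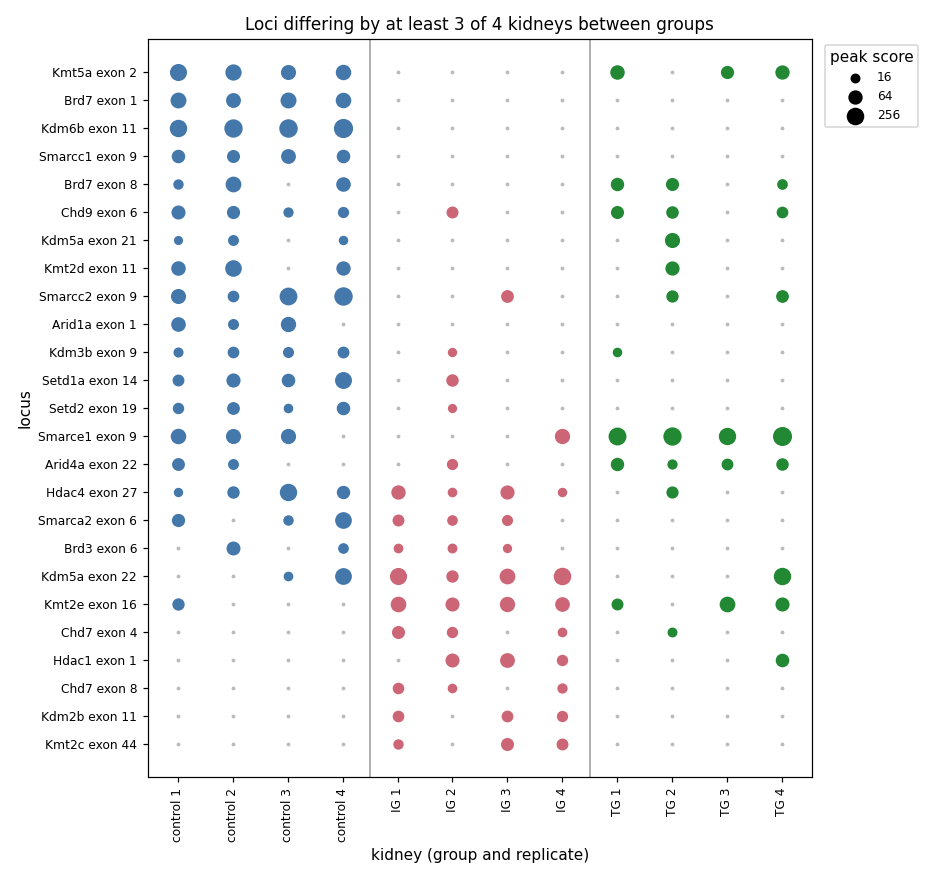
Member loci of those 68 genes with a gap of 3 or 4 kidneys between groups in IvC or TvI (rows, by gene and exon) in the 12 kidneys (columns). A coloured circle is a listed peak with area growing with the log2 of its score and a grey dot is no peak. Kmt5a exon 2, Brd7 exon 1, Kdm6b exon 11 and Smarcc1 exon 9 at the top have peaks in all 4 controls and no IG kidney.

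Other regulators of chromatin outside these families were set beside the members. Of 81 such genes, among them Polycomb subunits, acetyltransferases and TET and DNMT enzymes, 63 had a peak, with 275 loci and a median of 3 per gene. By Fisher's exact test before adjustment, 4 of their 273 loci were lost in IvC (among them loci of Tet1, Bptf and Mta3, against 2.73% of all loci) and 1 gained (in Atrx, against 1.35%). In TvI 1 of 223 was lost (in Gatad2b, against 0.449%) and 1 gained (against 0.217%). None passed adjustment over all loci (lowest adjusted p = 0.701 in IvC and 1 in TvI, Fisher's exact tests). By number of peaks 4 of 63 of these genes were called as lower in IvC (against 4.89% of all genes) and 1 as higher (against 2.26%), each with an unadjusted two-sided exact permutation p = 0.0286 and an adjusted p of 0.400. Among the lower ones Kat6b, an acetyltransferase, had 5 peaks in each control, 3, 3, 3 and 4 in IG and 3, 4, 4 and 4 in TG, and Tet1 and Mta3 had 1 in each control and 0 in each IG kidney. The higher one, Brwd3, a bromodomain protein with WD repeats, had 1 peak in each control, 2 in each IG kidney and 1 in each TG kidney, and was the 1 gene of 54 called as lower in TvI (adjusted p = 1, exact permutation test), with 0 called as higher.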

How the data were processed

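MeRIP-seq was analysed from the m6A peak lists of 12 kidneys, 1 per mouse, with groups and replicate numbers taken from the labels and doses from the study's methods. The 12 input libraries were not analysed here. The authors trimmed reads with cutadapt 1.9.3, aligned them with HISAT2 2.0.4 to mm10 (GRCm38) and called peaks with MACS, by the submitters' processing notes and the study's methods. The version, threshold and control library of MACS are not given in the sources used here. The deposited score of a peak is the negative log10 of its p-value multiplied by 10, and served here for description, ranking and shortening the lists. Scores in the lists run from 13.0 to 3233. No read counts are given, so depth is unknown and precision rests on 4 kidneys per group.

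Peaks were assigned to protein-coding genes of the GRCm38 annotation by at least 1 bp of exon overlap on the same strand. Of 91013 peaks, 1197 met no such gene and 1021 met several and were counted for each, among them peaks shared by Setd1a and Gm49388. Peaks of all kidneys that overlapped on one strand were joined into loci. Exons were numbered in one transcript per gene, and loci were placed by their midpoint, with the start and stop codon segments taken as 200 nt on either side. Presence at all loci was compared with two-sided Fisher's exact tests and peaks per gene with two-sided exact permutation tests over 70 arrangements, with Benjamini-Hochberg adjustment over all loci or genes, and p under 0.05 before adjustment was called. Nothing says whether libraries were made in batches, and the p-values take no account of any. They compare the observed split with other arrangements of these kidneys. Motifs were counted in the RefSeq GRCm38 genome. Named were the called loci and genes, the 10 genes with most loci, the gene with most loci in each family, the 5 highest-scoring loci in all 12 kidneys, loci with opposite differences, genes without a peak or with peaks in 1 or 2 kidneys. Family sums, scores by group at loci listed in all 8 kidneys, and Arid, Brd, Hdac and Smarce1 values given beyond that rule were chosen after their values were seen. A few items are not reported here. The members and gene lists were chosen with earlier results of these data known. Same-numbered samples did not deviate together (correlations from −0.0211 to 0.0490), so replicate numbers were not taken as pairs. Python 3.11.15, numpy 2.4.6 and scipy 1.17.1 were used.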

Additional observations from a re-analysis of the deposited data

Results flagged for a closer look

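In 5 of 42 sets of 4 kidneys (member measures and family sums by group) 1 kidney stood apart from the other 3 by Dixon's test at the 95% level. Chance alone does this in about 1 of 20 sets of continuous values, a rate that does not hold here, since in 4 of the 5 sets the other 3 kidneys had equal counts, so that any gap at all counts as standing apart. Smarc genes had 35 peaks in IG replicate 3 against 28 or 29 in the other IG kidneys, and 28 in TG replicate 2 against 30 in each other TG kidney. Brd genes had 16 peaks in control replicate 3 against 20 in each other control, and 16 in IG replicate 1 against 14. Hdac genes had 1 peak in TG replicate 1 against 2 in the others.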

How the results depend on the processing

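The sum of member peaks depended on the length of the lists. With lists cut to equal length its IvC difference changed sign to 3.25 and its TvI difference was −3.50, and with peaks scoring below the overall median left out the IvC difference was −11.0. At equal length 2 member loci were gained in IvC and 1 in TvI, 0 genes were called as higher in IvC and 0 as lower in TvI. Without those lower scores 1 gene was called as lower and 0 as higher in IvC, 1 locus was lost and 0 genes were lower in TvI. A difference of at least 3 of 4 kidneys gave 15 lost and 6 gained loci in IvC and 7 and 4 in TvI. Joining peaks regardless of strand or up to 100 bp apart moved none of these counts by over 1.5 times. The replicate block, whose smallest two-sided exact permutation p is 0.125, could call nothing (0 loci and 0 genes in IvC and TvI), and says nothing of stability. Leaving out 1 kidney at a time gave 4 to 8 lost and 0 to 2 gained loci in IvC, 0 to 2 lost and 0 to 1 gained in TvI, 3 to 5 genes called as lower and 1 to 2 as higher in IvC, and 1 to 3 as lower and 0 to 1 as higher in TvI. The sum then differed by −34.5 to −23.5 peaks in IvC and by −21.2 to −14.4 in TvI. Over all loci the TvI losses then numbered 81 to 134 in place of 60, and the gains 41 to 56 in place of 29. The IvC calls of Kdm6b exon 11, Kmt5a exon 2 and Brd7 exon 1 held at equal length, without the lower scores and with either other way of joining peaks. The TvI difference of Kmt5a exon 2 was 0 kidneys in place of 3 without the lower scores. Chd7 exon 8 lost its differences of 3 and −3 kidneys in both of the first 2 settings. Leaving out 1 kidney cannot change the call of a locus with 4 against 0 kidneys. Depth per kidney is unknown, so a missing peak cannot be told from a peak under the caller's limit.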
